A study of Mus musculus with 54 samples.

Results

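The genes described here are 10 genes of the glucocorticoid response in the mouse brain: the targets Fkbp5, Sgk1, Tsc22d3, Cdkn1a, Mt1, Mt2, Pdk4 and Sult1a1, and the receptor genes Nr3c1 and Nr3c2. They were chosen by name, for their known place in glucocorticoid signalling, but with earlier results of these data known. Of them, 9 were among the 16593 genes named on the array. In the dentate gyrus (DG), 7 of the 8 target genes were higher after 7 days of AICAR than in 7-day control mice. Among them were Sult1a1 (1.85-fold), Fkbp5 (1.55-fold) and Tsc22d3 (1.36-fold), for which that control mean was the lowest or next to lowest of the DG groups. None of these differences passed the test over all genes. In the lateral entorhinal cortex (LEC) of mice given AICAR for 7 days, Fkbp5 was 1.37-fold higher, while Cdkn1a was 1.67-fold and Pdk4 1.36-fold lower, again without passing it. For Cdkn1a and Pdk4 the mean of the 7-day controls was the highest of the LEC groups. Between the tissues 6 of the 8 genes differed, a share near that of all genes (69.3%): Fkbp5 was 1.78-fold higher in DG than in LEC, and Cdkn1a 1.91-fold higher in LEC than in DG.

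The study compared a compound with exercise. AICAR, a precursor of a nucleotide that activates the energy sensor AMPK, was injected intraperitoneally at 500 mg/kg per day in saline (ACR), and voluntary runners (RUN) had free access to a wheel. Control mice (CTR) had neither, but by the labels, which give 1 protocol for all times, every group was injected daily, CTR and RUN with saline. All were male C57BL/6J mice, 1 month old at the start and housed singly. ACR mice were killed after 7 or 14 days, and CTR and RUN mice after 7, 14 or 28 days. Groups killed later were thus older and, by the labels, had been injected for longer. At 14 days there were 2 control sets: the labels place the first with RUN14 and the second with ACR14, and each treatment was compared with its own set.

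Gene expression was measured in 54 Illumina arrays, 26 of DG and 28 of LEC, from 33 mice, of which 21 gave both tissues. Each group held 3 mice, except the first 14-day control set in DG, which held 2, and CTR28 in LEC, which held 4. For each group the study had put on the arrays the RNA samples that were purest and most concentrated. A level is the log2 intensity of a probe after each array was brought to the same mean and spread within its tissue, so a difference of 1 is 2-fold. Levels of DG and LEC given side by side below are on separate scales unless stated otherwise. Both tissues are mixtures of cells, and a change in the number of cells of a type cannot be told apart from a change in RNA per cell.

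Glucocorticoids, corticosterone in the mouse, are released by the adrenal gland at the end of the hypothalamic-pituitary-adrenal axis, in a daily rhythm and after stress. They bind the mineralocorticoid receptor (Nr3c2), which is occupied already at low hormone levels and is abundant in the hippocampus, and the glucocorticoid receptor (Nr3c1), which is occupied when the hormone rises. The bound receptor leaves its chaperones, enters the nucleus and binds DNA at paired, inverted half-sites. Its targets include Fkbp5, whose protein FKBP51 is a co-chaperone that lowers the receptor's affinity for the hormone and so closes a feedback loop.

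Detection and replicate correlation were similar across arrays, but the markers of some cell types differed between DG arrays. Between 11495 and 13219 probes were detected per array (detection p of 0.02 or less), and replicates correlated with r of 0.975 to 0.996 across probes. Genes of the choroid plexus, the tissue that makes cerebrospinal fluid and lies against the hippocampus, stood out in 3 DG arrays. The mean of the 4 measured markers of 15 was 11.44 in ACR7 replicate 2, 12.71 in replicate 5 of the second 14-day control set and 11.38 in ACR14 replicate 3, against 6.66 to 8.80 in the other 23. Values without these 3 arrays are given where they matter. The mean of 2 measured markers of granule neurons, the main cells of the DG, lay at 10.29 to 12.55 in DG and 6.60 to 7.97 in LEC, each on its own scale. In DG it was lowest in ACR14 replicate 3 (10.29), CTR28 replicate 3 (11.04) and replicate 6 of the second 14-day control set (11.05). In the same order, the mean of 10 oligodendrocyte markers was 10.99, 11.35 and 11.48 there, against 9.82 to 10.91 in the other DG arrays.

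Of the 10 genes, 9 had a probe, 12 probes in all, and 8 genes were tested in each tissue. Nr3c2 was not named by any probe in the annotation used here and was not analysed. The probe of Nr3c1 was detected on 2 of 26 DG arrays and 0 of 28 LEC arrays. Its intensity was 59.8 to 90.8 in DG and 56.6 to 93.8 in LEC, where the dimmest probe of an array lay at 35.3 to 50.4. The signal of this probe was thus close to background in every group, so the receptor's level was not measurable with it and was not compared. This is a statement on 1 probe, not on the receptor.

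Across the comparisons of treated with control mice, no target gene passed limma's moderated test at an adjusted p under 0.05, the Benjamini-Hochberg adjustment running over all genes tested. The plot of differences with their intervals shows all of them. In DG at 7 days of AICAR, 0 of 8 genes were called, as were 0% of all 8757 genes. There, 4 of the 8 had an unadjusted p under 0.05, against 14.5% of all genes. For 3 of the 8 the treated and control ranges did not overlap, against 18.8% of all genes. The median difference of the 8 was 0.30, beside 0.05 over all genes. The genes thus lay above the middle of the array in these mice, while the array as a whole gave no call at all. They were chosen with earlier results of these data known, so their position is a description. The CTR7 mean was itself the lowest of the 9 DG groups for Sult1a1, and ranked 8 of 9 for Fkbp5, Tsc22d3, Cdkn1a and Pdk4.

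**Figure D1:**
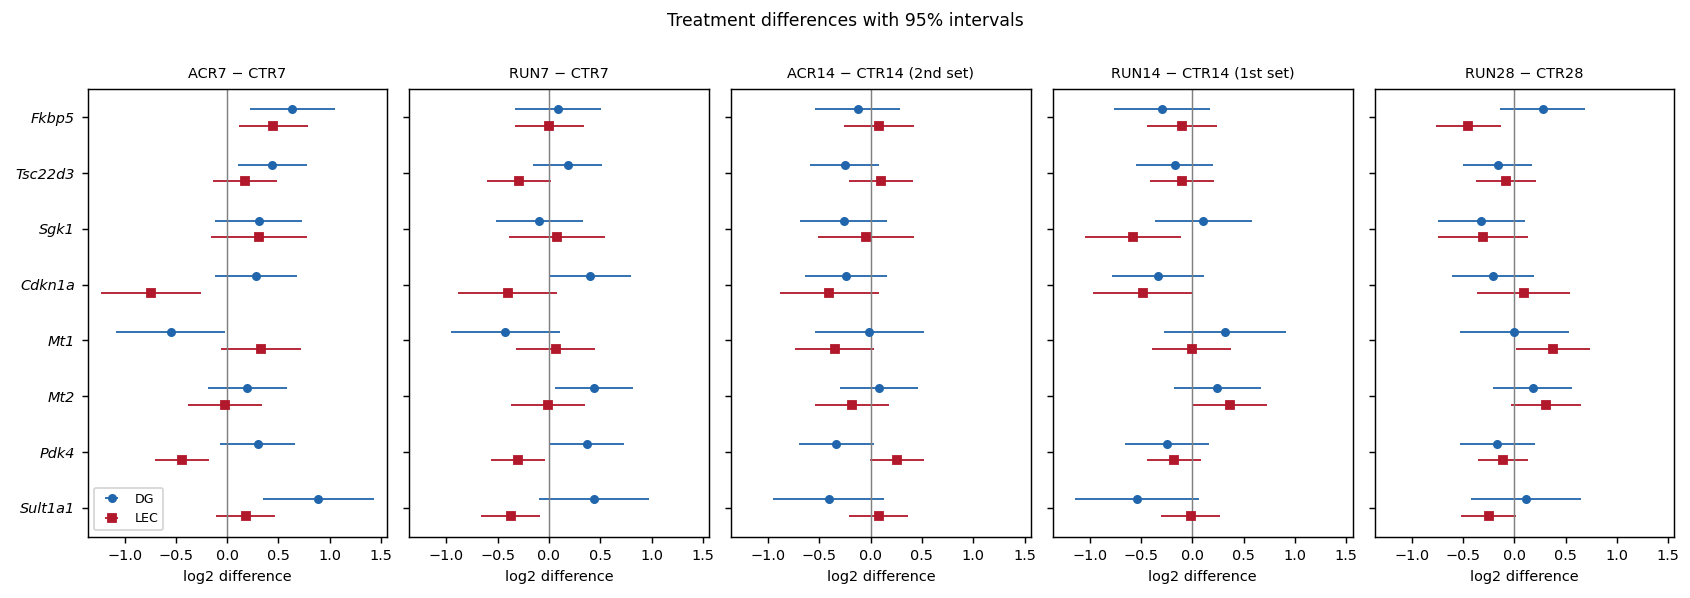
Log2 difference between treated and control groups for 8 genes, with its 95% interval, in 5 comparisons (panels), for DG (blue circles) and LEC (red squares). After 7 days of AICAR the DG intervals of Fkbp5, Tsc22d3 and Sult1a1 lie above 0 and the LEC intervals of Cdkn1a and Pdk4 below it. The Mt1 points in DG at 7 days lie below 0 under this scaling and above it under quantile scaling.

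With 7 days of running, 0 of 8 genes were called in DG, where 3.63% of all genes were. There 3 of 8 had an unadjusted p under 0.05 (all genes, 22.1%), 3 of 8 had ranges apart (all genes, 31.9%), and the median difference was 0.27 (all genes, 0.04). At 14 days the signs had turned: 7 of 8 genes were lower in ACR14 than in the second control set, with a median of −0.25 beside 0.01. None was called (0% of all genes), 0 had an unadjusted p under 0.05 (4.08%), and 1 had ranges apart, against 10.3%. The second control set had the highest mean of the DG groups for Sgk1, Cdkn1a and Pdk4. For RUN14 in DG, 5 of 8 genes were lower, 0 were called (0% of all genes), 0 had an unadjusted p under 0.05 (6.77%) and 1 had ranges apart, against 25.7%. For RUN28 in DG, 0 were called (0.251% of all genes), 0 had an unadjusted p under 0.05 (11.9%) and 1 had ranges apart, against 12%. The share of members with ranges apart was therefore near or below the background in these 4 comparisons.

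In LEC the counts were as low. With 7 days of AICAR 0 of 8 were called (1.39% of all genes), 3 had an unadjusted p under 0.05 (all genes, 16.1%) and 2 had ranges apart (18.6% of all genes). With running for 7 days 0 were called (0.971% of all genes), 2 had an unadjusted p under 0.05 (17.1%) and 2 had ranges apart (15.4%). For ACR14 0 were called (0% of all genes), with 0 at an unadjusted p under 0.05 (14.3%) and 0 with ranges apart (17.7%). For RUN14 0 were called (0%), with 2 at an unadjusted p under 0.05 (8.75%) and 1 with ranges apart (19.2%). For RUN28, where 14.9% of all genes were called, the members had 0 calls, 2 at an unadjusted p under 0.05 (30.9%) and 1 with ranges apart (28.4%). The selection rule of the study's methods, which joins a false discovery rate of 0.3 with a z-ratio of 1.5, chose 0 members in every DG comparison, where it chose 2.06 to 7.28% of all genes. In LEC, where it chose 3.06 to 8.23% of all genes, it chose Cdkn1a in ACR7 and in RUN14, Sult1a1 in RUN7 and Fkbp5 in RUN28, and none in ACR14. With 8 members, 0 or 1 chosen is near these shares.

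**Figure D2:**
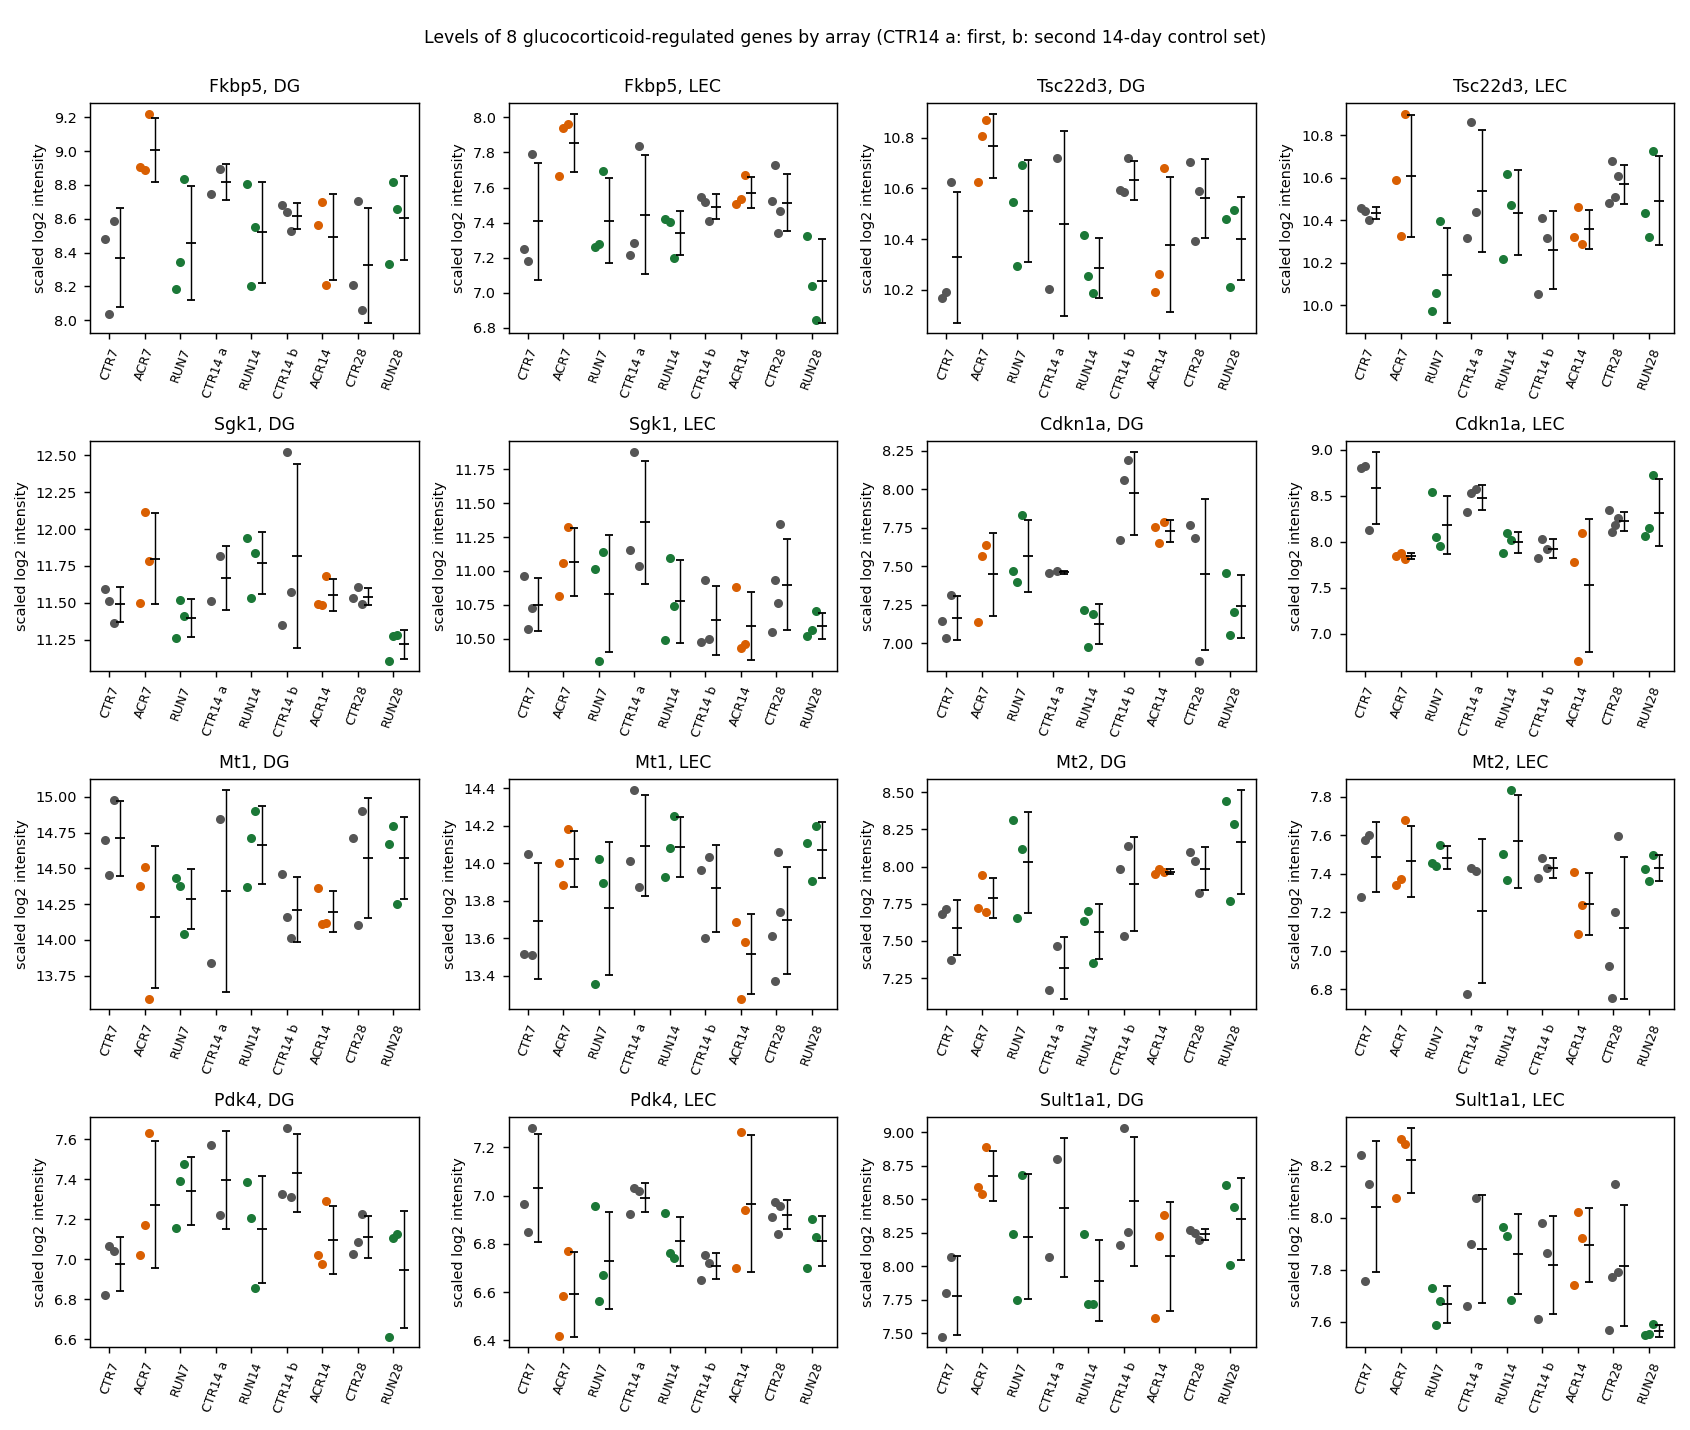
Level of each gene (scaled log2 intensity) in every array of DG and LEC, by group; points are mice, bars the group mean and SD (CTR grey, ACR orange, RUN green). In DG the 3 ACR7 mice lie above the 3 CTR7 mice for Fkbp5 and Sult1a1, and in LEC below them for Cdkn1a and Pdk4. Mt1 in DG is lower in ACR7 and RUN7 than in CTR7 under this scaling only, and higher under quantile scaling.

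Fkbp5, the co-chaperone of the receptor's feedback loop, was followed first. In DG its level was 8.48, 8.04 and 8.59 in the CTR7 mice and 8.91, 8.89 and 9.22 in the ACR7 mice. All ACR7 mice lay above all CTR7 mice, by 0.64 on average (SE 0.20, 95% interval 0.22 to 1.05, unadjusted p = 0.00436, limma adjusted p = 0.157). In RUN7 mice it was 8.19, 8.35 and 8.83, a range that overlapped with the controls (difference 0.09, interval −0.33 to 0.50, adjusted p = 0.842). ACR7 and RUN7 share their control mice, so both were also set against each other directly. Fkbp5 was higher in ACR7 than in RUN7 by 0.55 without overlap (unadjusted p = 0.0119, adjusted p = 0.606). In that comparison 0 of 8 members were called (0% of all genes), and 1 had an unadjusted p under 0.05 (all genes, 7.72%).

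At the later times no such gap was seen in DG. Fkbp5 was 8.57, 8.70 and 8.21 in ACR14 and 8.68, 8.64 and 8.53 in its controls, and the ACR14 range enclosed the control range. The first control set, of 8.74 and 8.89, lay wholly above the second. The ACR7 group had the highest mean of the 9 DG groups, 9.01 ± 0.19 (SD, n = 3), with the first control set next at 8.82 ± 0.11 (n = 2), and these neighbours overlapped. Of the 8 pairs of neighbouring group means in DG, 7 overlapped; the pair that did not was the 2 control sets.

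In LEC, Fkbp5 was 7.25, 7.18 and 7.79 in CTR7 and 7.67, 7.94 and 7.96 in ACR7. Control replicate 3 lay inside the treated range, and the difference was 0.45 (SE 0.17, interval 0.11 to 0.79, unadjusted p = 0.0115, adjusted p = 0.16). Without that array it was 0.64 and passed the threshold (adjusted p = 0.0229). RUN7 mice, at 7.26, 7.28 and 7.69, did not differ from controls beyond their spread (difference 0.00, interval −0.34 to 0.34). After 28 days of running the order was the other way: the 4 control mice lay at 7.52, 7.73, 7.34 and 7.47, and the 3 runners at 7.32, 7.04 and 6.84. All runners lay below all controls, by 0.45 (1.36-fold, SE 0.15, interval −0.77 to −0.13, adjusted p = 0.0514). This value sat at the threshold: the adjusted p was 0.0454 with quantile scaling, 0.0335 without CTR28 replicate 3 and 0.0307 without RUN28 replicate 1. In the other 5 of 7 fits with 1 array left out it did not pass, up to an adjusted p of 0.253 with a difference of −0.34 without RUN28 replicate 3, and with the replicate block it was 0.101.

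Tsc22d3 encodes GILZ, an anti-inflammatory leucine zipper protein and a widely used readout of the receptor. It had 2 probes, for different transcripts, and the brighter one was taken. In DG that probe read 10.17, 10.19 and 10.63 in CTR7 and 10.63, 10.81 and 10.87 in ACR7. The ranges met at 10.63, where rounding hides the gap by which they were counted as apart, and the difference was 0.44 (SE 0.16, interval 0.10 to 0.78, unadjusted p = 0.0126, adjusted p = 0.211). The dimmer probe read 6.77, 6.60 and 6.34 in CTR7 and 7.00, 7.42 and 7.61 in ACR7, without overlap. Its difference was 0.78 (SE 0.19, unadjusted p = 0.000557), with an adjusted p of 0.0898 over 11928 probes. Both probes were thus higher after AICAR, and neither passed the threshold. On the dim probe the CTR7 mean was 6.57 and that of ACR7 7.35, while the first and second 14-day control sets had 7.36 and 7.47. CTR28 had 7.11, which was 0.54 above CTR7 (limma, unadjusted p = 0.0105, adjusted p = 0.0629).

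In LEC the bright Tsc22d3 probe read 10.46, 10.44 and 10.40 in CTR7, a narrow range that the ACR7 values of 10.59, 10.33 and 10.90 enclosed. The RUN7 values of 9.97, 10.06 and 10.39 lay just below it, lower by 0.29 (adjusted p = 0.32). Between the treatments, ACR7 was 0.47 above RUN7 (unadjusted p = 0.00495, adjusted p = 0.588). The dim probe was 0.55 higher in ACR7 than in CTR7 (unadjusted p = 0.0121, adjusted p = 0.173), and 0.53 lower in RUN28 than in CTR28 (adjusted p = 0.0664). In RUN7 against CTR7, where the bright probe was lower, the dim probe was 0.12 higher, and the gap between the probes was not tested. Between the control groups of LEC the dim probe was 0.64 higher in CTR28 than in CTR7, which passed the threshold over all probes (adjusted p = 0.0249), while the bright probe was 0.14 higher (adjusted p = 0.552).

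Sgk1, a serum- and glucocorticoid-induced kinase that acts on ion channels and transporters, was a high-intensity gene, at a mean level of 11.58 in DG and 10.84 in LEC. In DG it was 11.59, 11.51 and 11.36 in CTR7 and 11.50, 12.12 and 11.78 in ACR7, higher by 0.31 with overlap (adjusted p = 0.499). The highest ACR7 value was that of replicate 2, 1 of the 3 arrays high in choroid plexus genes. In the second 14-day control set, replicate 5, the array with the highest choroid plexus mean, also had the highest Sgk1 level, 12.53, beside 11.35 and 11.58 in the others of its set. Without the 3 arrays the difference in ACR7 was 0.15, and that of ACR14, −0.26 with them, was 0.027. The part of the choroid plexus in the Sgk1 level was not tested further.

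**Figure D3:**
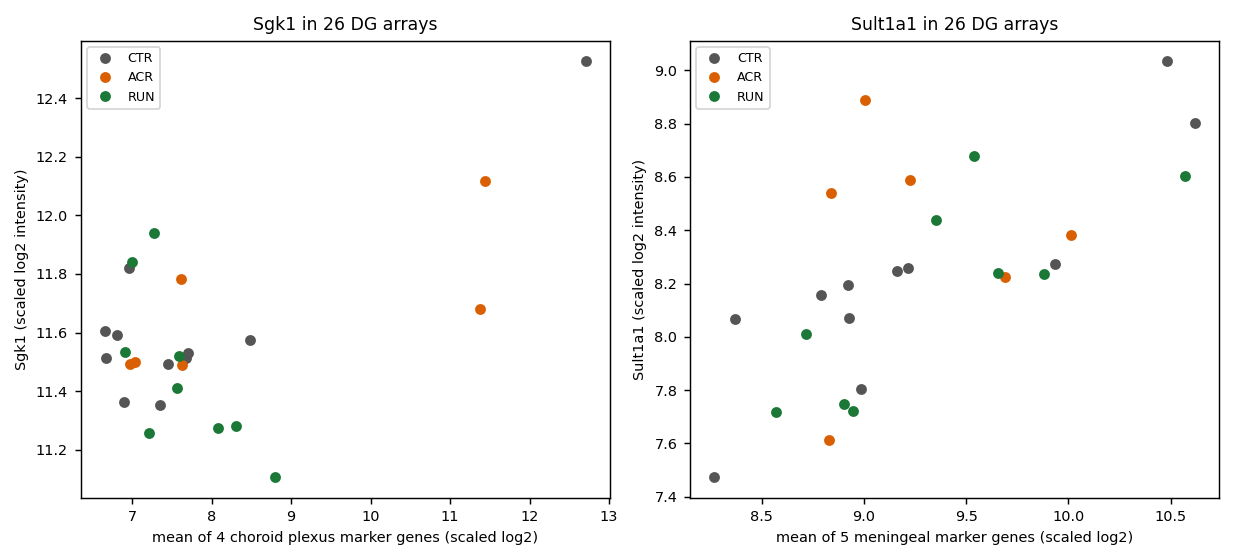
Left, Sgk1 level against the mean of 4 choroid plexus markers in 26 DG arrays; right, Sult1a1 level against the mean of 5 meningeal markers (all scaled log2 intensity; points are mice, coloured by treatment). The array with the highest choroid plexus mean (12.71), replicate 5 of the second 14-day control set, has the highest Sgk1 level (12.53). The same array has the highest Sult1a1 level (9.03). Its meningeal mean of 10.48 lies below those of replicate 3 of the first set (10.62) and RUN28 replicate 1 (10.57).

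After 28 days of running, Sgk1 in DG was 11.11, 11.27 and 11.28, below the controls at 11.53, 11.61 and 11.49 without overlap (difference −0.32, adjusted p = 0.507). In LEC its largest treatment difference was at 14 days of running. There the runners had 10.49, 11.09 and 10.74 and their controls 11.15, 11.88 and 11.04, a difference of −0.58 (unadjusted p = 0.0166, adjusted p = 0.451). Against the other control set, of 10.47, 10.93 and 10.50, the sign turned to 0.14. The LEC value at 14 days therefore rested on which controls were used.

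The start-site windows of the genes were searched for the receptor's element, since Sgk1 is the only gene of the set whose windows held its full palindrome. Windows ran from 250 bases before to 50 after each RefSeq start (GRCm38.p6), 17 windows for 9 of the genes. The element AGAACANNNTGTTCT, read on both strands, was found in 3 of 32851 windows of all genes (0.00913%). Of these 3, 1 was a window of Sgk1. That gene had more windows than any other member, and its other windows held no full element. In the window at chr10:21993640-21993939, plus strand, the element begins 189 bases before the start. It is shown in capitals, because it is the letter pattern that the receptor dimer recognises:
Sgk1: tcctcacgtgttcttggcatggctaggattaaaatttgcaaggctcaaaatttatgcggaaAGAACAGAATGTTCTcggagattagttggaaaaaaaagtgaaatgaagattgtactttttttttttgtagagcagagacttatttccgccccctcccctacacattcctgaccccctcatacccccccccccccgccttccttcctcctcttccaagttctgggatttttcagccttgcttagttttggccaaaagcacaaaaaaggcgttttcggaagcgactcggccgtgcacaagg
A looser core, ACANNNTGT, which overlaps the full element, was in 6.85% of all windows, and the half-site AGAACA in 19%. The windows of Fkbp5 (chr17:28486100-28486399), Pdk4 and Cdkn1a held none of these, the Sult1a1 window held the half-site 2 times, and 1 of 3 Tsc22d3 windows held it once. A match describes letters in a window and shows no binding, and its absence here says nothing of sites elsewhere in a gene.

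Cdkn1a, the cell-cycle inhibitor p21, is a target of the receptor as well as of p53. In DG it was 7.14, 7.03 and 7.31 in CTR7, 7.14, 7.56 and 7.64 in ACR7 and 7.47, 7.40 and 7.83 in RUN7. The runners lay wholly above the controls, by 0.40 (unadjusted p = 0.0483, adjusted p = 0.222), while the AICAR mice overlapped with them. At 14 days of running it was 7.21, 6.97 and 7.19, below both controls at 7.46 and 7.47 (difference −0.34, adjusted p = 0.804). Against the other control set, at 7.67, 8.06 and 8.19, the difference was −0.85 and passed the threshold (adjusted p = 0.0347).

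In LEC, Cdkn1a was 8.80, 8.83 and 8.13 in CTR7 and 7.85, 7.88 and 7.81 in ACR7. The AICAR mice were nearly alike and lay below every control, by 0.74 (1.67-fold, SE 0.24, interval −1.23 to −0.26, unadjusted p = 0.00415, adjusted p = 0.1). The lowest control was replicate 3, and without it the difference was −0.97 with an adjusted p of 0.0196. The gene's 2 dimmer probes were also lower, by −0.56 (adjusted p = 0.122) and −0.40 (adjusted p = 0.24). In the same arrays the mean of 10 of 13 endothelial markers was 7.31 to 7.56 in ACR7 and 7.47 to 8.01 in CTR7. The mean of 6 of 9 markers of cortical layers was 8.76 to 8.82 in ACR7 and 8.84 to 9.18 in CTR7. The part of either cell type in the Cdkn1a difference was not tested. The CTR7 mean of Cdkn1a, 8.59, was the highest of the LEC groups. The other LEC controls had means of 8.48 and 7.93 (first and second 14-day sets) and 8.225 (CTR28).

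At 14 days of running in LEC, Cdkn1a was 7.87, 8.09 and 8.02, below its controls at 8.32, 8.54 and 8.58 (difference −0.48, adjusted p = 0.566). The other control set lay at 7.82, 8.03 and 7.92, and against it the sign turned to 0.068. ACR14 mice had 7.78, 6.71 and 8.09. The middle value is the lowest Cdkn1a level of the 28 LEC arrays, and without that mouse the difference from controls went from −0.40 to 0.0077. Against the other control set it was −0.95 and passed the threshold (adjusted p = 0.0382).

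Mt1 and Mt2 encode metallothioneins, small cysteine-rich proteins that bind zinc and copper and are induced by metals through the factor MTF1 and by glucocorticoids. The Mt1 probe was among the brightest of the array, with intensities of 15982.9 to 29824 in DG where the highest of any probe was 31728.9. In DG its level was 14.70, 14.45 and 14.98 in CTR7, 14.38, 14.51 and 13.59 in ACR7, and 14.43, 14.38 and 14.04 in RUN7. After AICAR it was lower by 0.55 (difference −0.55, interval −1.08 to −0.02, adjusted p = 0.321) under the authors' scaling, but higher, by 0.31 (adjusted p = 0.351), under quantile scaling. In runners at 7 days it was lower without overlap (difference −0.43, adjusted p = 0.337) under the authors' scaling and higher by 0.26 (adjusted p = 0.163) under quantile scaling. The spread (SD) of all log2 intensities on an array, by which that scaling divides, was 1.704 to 1.826 in the DG CTR7 arrays, 1.88 to 2.139 in ACR7 and 1.865 to 1.981 in RUN7. No direction can be given for Mt1 in DG at 7 days.

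**Figure D4:**
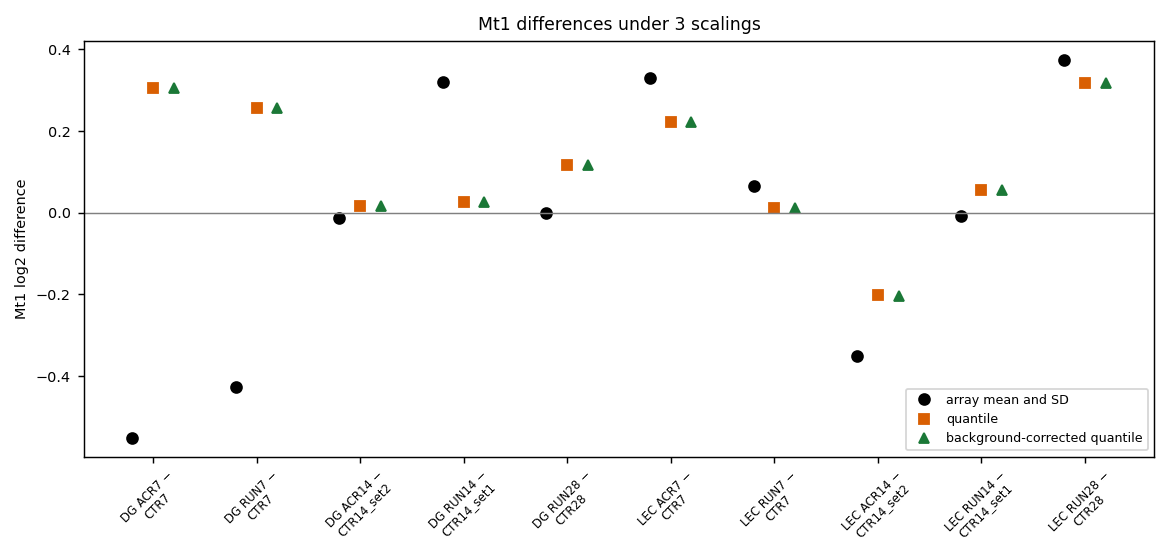
Mt1 log2 difference between treated and control mice in 10 comparisons (x axis) under 3 scalings of the same arrays: by array mean and SD (black circles), by quantiles (orange squares), and by quantiles after background correction (green triangles). In DG at 7 days the sign turned, from −0.55 to 0.31 for ACR7 and from −0.43 to 0.26 for RUN7, while in LEC after 28 days of running it stayed above 0 at 0.37 and 0.32.

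In LEC, Mt1 was 14.11, 13.90 and 14.20 in RUN28 and 13.61, 13.37, 14.06 and 13.74 in CTR28. The highest control lay inside the range of the runners. The difference was 0.37 (unadjusted p = 0.0424, adjusted p = 0.147), and with quantile scaling it was 0.32 and passed the threshold (adjusted p = 0.0237). ACR7 was 0.33 higher than CTR7 with overlap, and with quantile scaling 0.22 higher.

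Mt2, read at a much lower intensity by its probe, had its highest DG group means in RUN28 (8.17 ± 0.35, SD, n = 3) and RUN7 (8.03 ± 0.34, n = 3). It was 7.68, 7.71 and 7.38 in CTR7, 8.31, 7.65 and 8.12 in RUN7 and 7.72, 7.94 and 7.70 in ACR7. RUN7 exceeded CTR7 by 0.44 (unadjusted p = 0.0267, adjusted p = 0.168) although 1 runner lay inside the control range. CTR7 and CTR28, which differ in age and in days of injection, were also set against each other. The CTR28 mice, at 8.10, 8.04 and 7.82, lay above CTR7 in DG by 0.40 (adjusted p = 0.17). In LEC they lay below, by 0.37 (adjusted p = 0.124). In that comparison of controls, 0 of 8 members were called in DG, where 11.1% of all genes were, and 0 in LEC, where 16.2% were. Only 1 member, Mt2, had an unadjusted p under 0.05 in each (all genes, 26.8% in DG and 31.7% in LEC).

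The Mt1 and Mt2 genes lie next to each other, and their start windows are shown for the metal response element, whose core is TGCGCNC or TGCACNC. On either strand the first was in 15.4% and the second in 12.6% of all windows. The Mt1 window, chr8:94178839-94179138, plus strand, held 3 such cores, and the Mt2 window, chr8:94172368-94172667, plus strand, held 4, each in capitals:
Mt1: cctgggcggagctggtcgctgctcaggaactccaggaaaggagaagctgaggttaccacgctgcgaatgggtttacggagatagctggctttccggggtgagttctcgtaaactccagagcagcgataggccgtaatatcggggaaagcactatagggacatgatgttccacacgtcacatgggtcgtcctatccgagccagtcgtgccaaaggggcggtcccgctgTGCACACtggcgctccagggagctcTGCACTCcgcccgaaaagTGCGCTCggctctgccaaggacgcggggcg
Mt2: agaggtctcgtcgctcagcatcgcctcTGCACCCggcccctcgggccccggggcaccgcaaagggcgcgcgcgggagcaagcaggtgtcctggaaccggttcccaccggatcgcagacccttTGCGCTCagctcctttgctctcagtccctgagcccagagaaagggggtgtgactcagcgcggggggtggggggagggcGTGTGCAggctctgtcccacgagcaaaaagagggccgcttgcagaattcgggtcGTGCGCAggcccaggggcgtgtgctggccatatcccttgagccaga
No full receptor element was in either window, and the Mt1 window held the looser core once. Under the authors' scaling, with group means taken out, Mt1 and Mt2 did not move together across DG arrays (Pearson r = −0.0745, Spearman rho = −0.0256, permutation p = 0.742 and 0.919, n = 26). In LEC r was 0.434 and rho 0.495 (permutation p = 0.0662 and 0.0242, adjusted 0.331 and 0.121, n = 28).

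Pdk4 encodes a kinase that shuts off pyruvate dehydrogenase and so spares glucose, and it is induced by fasting and glucocorticoids in many tissues. In LEC it was 6.96, 6.85 and 7.28 in CTR7, 6.42, 6.58 and 6.77 in ACR7 and 6.96, 6.56 and 6.67 in RUN7. All AICAR mice lay below all controls, by 0.44 (1.36-fold, SE 0.13, interval −0.71 to −0.18, unadjusted p = 0.00204, adjusted p = 0.0747). The runners were lower by 0.30 with overlap (adjusted p = 0.222). The CTR7 mean, 7.03, was the highest of the LEC groups. The other LEC controls had means of 6.99 and 6.71 (first and second 14-day sets) and 6.92 (CTR28). In DG the direction of both treatment differences was the other way. CTR7 mice had 6.82, 7.07 and 7.04, ACR7 mice 7.02, 7.17 and 7.63, and RUN7 mice 7.15, 7.39 and 7.48. The runners lay above the controls without overlap (difference 0.37, adjusted p = 0.225), and the AICAR mice were higher by 0.30 with overlap (adjusted p = 0.444). These levels are low, and 1 of 26 DG arrays did not detect the probe.

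At 14 days of AICAR both signs were turned. In DG, ACR14 mice had 7.02, 6.98 and 7.29 and their controls 7.33, 7.66 and 7.31, lower by 0.34 (adjusted p = 0.999). In LEC they had 6.70, 7.26 and 6.94 against 6.65, 6.75 and 6.72, higher by 0.26 (adjusted p = 0.357), but −0.0245 against the other control set. The change of the AICAR effect in LEC from 7 to 14 days was 0.70 (unadjusted p = 0.000708, adjusted p = 0.096). The control means in this contrast were themselves apart, at 7.03 in CTR7 and 6.71 in the second 14-day set.

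Sult1a1 encodes a sulfotransferase that adds sulfate to phenols, catecholamines among them, and is induced by glucocorticoids in liver. In DG it was 7.47, 7.80 and 8.07 in CTR7 and 8.59, 8.54 and 8.89 in ACR7. No ACR7 mouse overlapped with a control, and the difference, the largest of the 8 genes, was 0.89 (SE 0.26, interval 0.35 to 1.43, unadjusted p = 0.00236, adjusted p = 0.138). RUN7 mice had 8.24, 7.75 and 8.68, between and across both (difference from CTR7 0.44, adjusted p = 0.332). The CTR7 mean, 7.78, was the lowest of the DG groups. The other controls had means of 8.44 and 8.48 (first and second 14-day sets) and 8.24 (CTR28). At 14 days of AICAR Sult1a1 was 7.61, 8.22 and 8.38, against 8.16, 9.03 and 8.26 in controls, lower by 0.41 with overlap. The AICAR effect was thus 1.30 lower at 14 than at 7 days (interval −2.06 to −0.54, unadjusted p = 0.0018, adjusted p = 0.293).

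Markers of the meninges, the membranes around the brain, were read in the same arrays. The mean of 5 measured meningeal markers of 8 was 8.27, 8.98 and 8.37 in CTR7, 9.23, 8.84 and 9.01 in ACR7 and 9.88, 8.90 and 9.54 in RUN7. The control mouse with the highest Sult1a1, at 8.07, had a meningeal mean of 8.37, and the ACR7 mouse with the highest, at 8.89, one of 9.01. Their part in the Sult1a1 difference was not tested. Without the 3 arrays high in choroid plexus genes, the AICAR differences at 7 days were 0.96 for Sult1a1 (adjusted p = 0.158), 0.70 for Fkbp5 (adjusted p = 0.164) and 0.42 for Tsc22d3 (adjusted p = 0.258).

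In LEC, Sult1a1 separated the treatments from each other. CTR7 mice had 8.24, 7.76 and 8.13, ACR7 mice 8.08, 8.30 and 8.28, and RUN7 mice 7.73, 7.59 and 7.68. The runners lay below the controls by 0.37 (1.30-fold, SE 0.14, interval −0.66 to −0.09, adjusted p = 0.171) and below the AICAR mice by 0.55 (1.47-fold, SE 0.14, interval 0.27 to 0.84, unadjusted p = 0.000514, adjusted p = 0.169), with no overlap in either. In the comparison of ACR7 with RUN7 in LEC 0 of 8 members were called, where 0.152% of all genes were. There 3 had an unadjusted p under 0.05 (all genes, 5.44%), and 2, Sult1a1 and Cdkn1a, had ranges apart (10.1% of all genes). After 28 days the runners, at 7.55, 7.55 and 7.59, had the lowest Sult1a1 group mean of LEC, but the controls, from 7.57 to 8.13, reached down to them (difference −0.25).

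Changes of an effect with time were tested directly. From 7 to 14 days of AICAR in DG, the effect was lower for 7 of the 8 genes, with a median of −0.60 beside −0.03 over all genes. Of the 8, 4 had an unadjusted p under 0.05 (all genes, 11%): Sult1a1, Fkbp5 (−0.76, adjusted p = 0.379), Tsc22d3 (−0.70, adjusted p = 0.347) and Pdk4 (−0.63, adjusted p = 0.398). None was called by limma (0% of all genes). This contrast also holds the difference between its control groups. Counted from the highest of the DG group means, CTR7 ranked 8 or 9 of 9 for these 4 genes. The second 14-day control set ranked 1 to 3. The part of the controls in these changes was not tested. Between 7 and 28 days of running in DG, 0 members were called (4.1% of all genes) and 2 had an unadjusted p under 0.05 (all genes, 20.3%), Cdkn1a (−0.61) and Pdk4 (−0.53). In LEC, 0 were called from ACR7 to ACR14 (0.0936% of all genes) and 0 from RUN7 to RUN28 (17.4% of all genes). An unadjusted p under 0.05 was found for 2 members in the first (all genes, 17.8%) and 0 in the second (32.5%).

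The control sets give a scale for such differences. Between the second and first 14-day control sets, which differ in no treatment, Cdkn1a in DG differed by 0.51 (adjusted p = 0.218) and Mt2 by 0.56 (adjusted p = 0.171). In LEC, Sgk1 differed by −0.72 (unadjusted p = 0.00384, adjusted p = 0.394), Cdkn1a by −0.55 and Pdk4 by −0.28, all 3 without overlap, a count to set beside 17.5% of all genes. By limma 0 members were called in either tissue (0.126% of all genes in DG, 0% in LEC). An unadjusted p under 0.05 was found for 2 in DG (all genes, 17.8%) and 3 in LEC (all genes, 7.24%). With the brightest probe of each gene and each treatment's own control set, 2 treatment differences were wider than the 0.72 of Sgk1 between these control sets: Sult1a1 in DG and Cdkn1a in LEC, both after 7 days of AICAR. That 0.72 was not the widest gap among controls of different times. In DG the Cdkn1a mean was 7.16 in CTR7 and 7.97 in the second 14-day set, and the Sult1a1 mean 7.78 and 8.48.

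Whether the treatments acted differently in the tissues was tested on one scale for both, with the mouse as a random block. For AICAR at 7 days, the effect in DG minus that in LEC was 1.05 for Cdkn1a (unadjusted p = 0.0025, adjusted p = 0.104) and 0.74 for Pdk4 (unadjusted p = 0.00167, adjusted p = 0.0948). No member was called (0.233% of all genes), while 4 had an unadjusted p under 0.05 (all genes, 17.2%). For running at 7 days Pdk4 (0.67, adjusted p = 0.0826), Sult1a1 (0.82, adjusted p = 0.119) and Cdkn1a (0.81, adjusted p = 0.149) came nearest. There 0 were called (2.5% of all genes) and 4 had an unadjusted p under 0.05 (all genes, 19.6%). The AICAR and running contrasts at 7 days use the same CTR7 arrays, so they are not independent. For Cdkn1a and Pdk4 the CTR7 mean ranked 8 of 9 in DG and was the highest of the LEC groups. The part of these controls in the differences was not tested. At 28 days of running the Fkbp5 effect was 0.73 higher in DG than in LEC (adjusted p = 0.0962), with 0 called (4.17% of all genes) and 1 at an unadjusted p under 0.05 (all genes, 21%). At 14 days 0 were called for either treatment (0% of all genes in both). In each, 1 had an unadjusted p under 0.05 (all genes, 5.88% for AICAR and 1.82% for running).

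The tissues themselves differed in these genes, treatments averaged. On the common scale Fkbp5 ran from 7.89 to 9.04 in DG, with a median of 8.45, and from 6.95 to 8.11 in LEC, with a median of 7.57. DG was higher by 0.83 (1.78-fold, interval 0.70 to 0.96, adjusted p = 6.08e-15). Cdkn1a was the opposite, with a median of 7.33 in DG and 8.24 in LEC (difference −0.94, 1.91-fold, interval −1.09 to −0.78, adjusted p = 4.09e-14). The ranges of both genes nevertheless overlapped.

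Of the others, Tsc22d3 was lower in DG (difference −0.38, 1.30-fold, adjusted p = 6.74e-08), Sgk1 higher (0.27, 1.21-fold, adjusted p = 0.00231), and Mt2 (0.17, adjusted p = 0.0185) and Pdk4 (0.12, adjusted p = 0.0409) slightly higher. The last 2 did not pass with quantile scaling (0.12, adjusted p = 0.0881, and 0.07, adjusted p = 0.151). Sult1a1 did not pass (0.08, adjusted p = 0.31). Mt1 had −0.11 (adjusted p = 0.218) under the main scaling and 0.21 under quantile scaling (adjusted p = 5.12e-07), so its order between the tissues was not settled. In all 6 of 8 members differed between DG and LEC, a share near that of all genes, 69.3% of 9024.

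**Figure D5:**
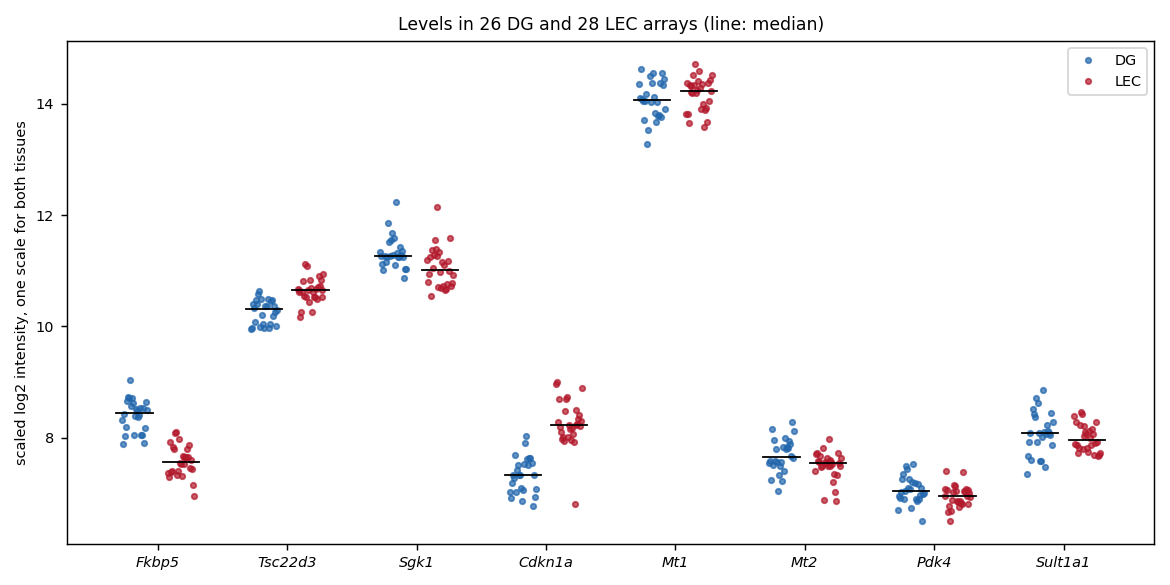
Levels of 8 genes in 26 DG (blue) and 28 LEC (red) arrays on one scale (scaled log2 intensity); points are arrays, lines medians. Fkbp5 is higher in DG (medians 8.45 and 7.57) and Cdkn1a in LEC (8.24 and 7.33), while the small gap of Mt1 has the opposite sign under quantile scaling.

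Other genes known to be induced by glucocorticoids were followed as a list of 40, of which 28 were tested in DG and 26 in LEC. Like the members, they were chosen with earlier results of these data known. After 7 days of AICAR in DG, 23 of the 28 were higher than in controls, with a median of 0.22 beside 0.05 over all genes. None was called by limma, and 7 had an unadjusted p under 0.05 (all genes, 14.5%). The nearest were Mertk, a receptor for the clearance of dying cells (0.52, adjusted p = 0.164), and Mfsd2a, a lipid transporter of the blood-brain barrier (0.55, adjusted p = 0.201). After 7 days of running in DG 22 were higher, with a median of 0.24 (all genes, 0.04), and 1 rose: Fam107a, an actin-bundling protein induced by stress (0.59, adjusted p = 0.0362), 1 of 28 where 3.63% of all genes were called. After 14 days 8 of 28 were higher in ACR14 (median −0.16) and 12 in RUN14 (median −0.11), and after 28 days of running 17 (median 0.03), with 0 called in each.

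The list had calls in LEC too. Per2, a clock gene, rose after 7 days of AICAR (0.87, adjusted p = 0.0473), and Slc2a1, the glucose transporter of the blood-brain barrier, after 7 days of running (0.52, adjusted p = 0.043), each 1 of 26 where 1.39% and 0.971% of all genes were called. After 28 days of running 5 of 26 genes fell and none rose, with a median of −0.11. They were the clock genes Per1 (−1.49, adjusted p = 0.00289) and Per2 (−0.91, adjusted p = 0.00631), Mfsd2a (−0.42, adjusted p = 0.019), Slc2a1 (−0.38, adjusted p = 0.0349) and Mertk (−0.42, adjusted p = 0.0415). The group they were set against had moved as well: between CTR7 and CTR28 in LEC, Per1 (1.29), Per2 (0.84), Slc2a1 (0.51) and Nfkbia (0.59) rose. The share called in RUN28, 5 of 26, stands beside 14.9% of all genes. Per1 and Per2 follow the time of day, and whether the groups were killed at the same hour was not tested.

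The machinery around the receptor had a few calls. Of 5 tested coregulators, Ncoa2 (−0.69, adjusted p = 0.028) and Smarca4 (−0.55, adjusted p = 0.0417) fell after 7 days of running in DG, and both were also lower in CTR28 than in CTR7 there (−0.82 and −0.83). Of 4 in LEC, Ncoa1 (−0.43, adjusted p = 0.01) and Ep300 (−0.65, adjusted p = 0.0437) fell after 28 days. Of 12 chaperones that hold the receptor before it binds hormone, Dnajb1 (−0.50) and Hspa1a (−0.60) fell in RUN28 in LEC. The LEC calls in RUN28, 2 of 4 coregulators and 2 of 12 chaperones, stand beside the 14.9% of all genes called there, and the DG calls in RUN7, 2 of 5, beside 3.63%. The list of genes for steroid activation and transport had 3 members tested in DG and 2 in LEC, and none changed with treatment. Hsd11b1, which regenerates active corticosterone, was however higher in DG than in LEC by 1.37 (adjusted p = 3.98e-21). In the corticotropin-releasing system, Adcyap1, which encodes the peptide PACAP, fell after AICAR for 7 days in LEC (−0.67, adjusted p = 0.0384), and Crhr1, the receptor of the releasing hormone, was lower in DG than in LEC (−0.88, adjusted p = 7.5e-17). The calls of Hsd11b1 and Crhr1 stand beside 69.3% of all genes called between DG and LEC, and that of Adcyap1 beside 1.39% in ACR7 in LEC.

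The lists built around single members gave few further calls, to be read against the 14.9% of all genes called in RUN28 in LEC, 1.39% in ACR7 in LEC and 3.63% in RUN7 in DG. Of 8 genes of the metal response in LEC, Mt3, the brain's own metallothionein, rose (0.63, adjusted p = 0.00333) and Mtf1 fell (−0.35, adjusted p = 0.0472) after 28 days of running. Around Pdk4, of 14 genes of fasting and fatty acid use, Pparg fell (−0.79, adjusted p = 0.0193) and Foxo1 rose (0.67, adjusted p = 0.0427) after 7 days of AICAR in LEC, and Fabp3 rose (0.46, adjusted p = 0.00973) in RUN28. Around Cdkn1a, of 17 genes of p53 and the cell cycle, Mdm2 fell in RUN28 in LEC (−0.32, adjusted p = 0.0226). Around Sgk1, Tsc22d1 rose in RUN7 in DG (0.92, adjusted p = 0.0414), and in RUN28 in LEC Nedd4l (−0.47), a ubiquitin ligase that the kinase inhibits, and Rictor (−0.40) fell while Sgk3 (0.50) rose. Around Sult1a1, the 5 genes of sulfation tested in DG and the 4 in LEC had no call with treatment.

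Members were compared within mice. In the 21 mice with both tissues, the deviations of a gene from its group means in DG and in LEC were correlated, 1 relation for each of 8 genes. Sult1a1 had the highest, with r = 0.52 and rho = 0.545 (permutation p = 0.0364 and 0.0434, adjusted 0.23 and 0.348), and r was 0.563 without the 2 mice farthest from the median. For Tsc22d3 r was 0.388 and rho 0.395 (permutation p = 0.0861 and 0.0909), for Fkbp5 r was 0.371 and rho 0.401 (0.221 and 0.183), and Mt1 was negative, with r = −0.40 and rho = −0.316 (0.0833 and 0.194). None passed after adjustment over the 8 genes. The levels were under the authors' scaling, so the Mt1 relation carries the limit given for its DG differences.

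Between members, 10 relations were computed. Sgk1 and Tsc22d3 moved together most in LEC, with r = 0.608 and rho = 0.618 over 28 arrays (permutation p = 0.00799 and 0.00671, adjusted 0.0799 and 0.0671), and r was 0.553 without the 2 outermost arrays. In DG the same pair had r = 0.0702 and rho = 0.119 (permutation p = 0.675 and 0.619, n = 26). Fkbp5 and Tsc22d3, both direct targets of the receptor, had r of 0.0119 in DG and 0.00437 in LEC and rho of 0.000342 and −0.0142 (permutation p of 0.955 or more). Mice of one group with more Fkbp5 thus did not have more Tsc22d3.

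The genes most like each member over all arrays were listed as a description, by the mean of r over 26 DG and 28 LEC arrays, which share depth and group differences. For Fkbp5 they were Itga11 (r = 0.733 in DG, 0.647 in LEC), Zfp280b and Pkp2. For Tsc22d3 they were Etnppl, Sult1a1 (0.778, 0.298) and Mfsd2a (0.61, 0.409), the last 2 being a member and a gene of the wider list. Cdkn1a was most like Abcb9 (0.661, 0.74), Tnfrsf12a and Lrrc75a, Sgk1 most like Slc12a2 (0.771, 0.363), Vezf1 and Vasn, and Pdk4 most like Kdm3a (0.675, 0.706), Rmdn3 and Tada1. Sult1a1 was most like Ms4a6d (0.781, 0.673), Timp3 and Ctsc, and Mt2 most like Cd52, Micos13 and S100a6 (0.746, 0.556). For Mt1 they were Rpl38 (0.935, 0.904), Rpl37 and Cox5b, genes of the ribosome and the respiratory chain. These values are under the authors' scaling, which left no direction for Mt1 in DG at 7 days. By mean level Mt1 lay at percentile 99.9 of the tested genes in DG and 99.8 in LEC. Likeness under quantile scaling was not computed.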

How the data were processed

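Total RNA from DG and LEC was hybridised by the authors to Illumina MouseRef-8 beadchips. The first deposited file holds, per probe, a non-normalized intensity and a detection p-value, extracted with GenomeStudio 1.6.0 per the submitters' processing notes; background subtraction is not given in the sources used here. A second deposited file holds the authors' score, a log z-transformation within each array (mean 0, SD 1).

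Here log2 intensities were centred and divided by each array's SD, as in that score, and put back on the log2 scale with the tissue's mean array SD (1.855 in DG, 1.748 in LEC). Probes were kept when detected (p at most 0.02) on all arrays of any 1 group, leaving 12658 in DG and 12233 in LEC. The brightest probe stood for a gene. Of 25697 probes, 23978 had 1 gene symbol, 0 several and 1719 none, and 23962 matched RefSeq. Groups were compared with limma 3.58.1 (R 4.3.3) in 1 fit per tissue, and in a joint fit with the mouse as a random block (correlation −0.06), with Benjamini-Hochberg adjustment over 8757, 8545 or 9024 genes; statmod 1.5.0 was used for the block. Single mice were the replicates. The p-values rest on the spread within groups, pooled over all groups of a fit, and not on the spread of the 2 groups compared alone. Each group held 2 to 4 mice, which limits precision. Relations used 100000 permutations within groups (Python 3.11.15, scipy 1.17.1). The fits were tested on simulated data. Promoter windows came from RefSeq (GRCm38.p6).

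Named were the 10 members in every comparison, the called genes of each list or else those with the smallest p, and the 3 genes most like each member. The members and the 10 gene lists were chosen with earlier results of these data known. Alternatives were other scalings, filters, probes, control sets, sample sets, a replicate block and the methods' selection rule. Leaving out the 3 DG arrays high in choroid plexus genes was chosen after seeing the data.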

Additional observations from a re-analysis of the deposited data

How the results depend on the processing

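Counts of called members were recomputed under each alternative, and they kept within 1.5 times the main count in 261 cases and went past it in 22, each time upward from 0. In LEC, RUN28 against CTR28 gave 2 called members with quantile normalization and with background correction, 1 with the strict detection filter, 1 with only the groups compared, 1 with the methods' selection rule, and 0 to 1 when single arrays were left out. That selection rule also gave 1 in LEC ACR7, 1 in LEC RUN7 and 1 in LEC RUN14. Leaving out single arrays gave 0 to 2 in LEC ACR7 (2 without CTR7 replicate 3), 0 to 1 in DG CTR28 against CTR7 (1 without CTR28 replicate 3) and 0 to 1 in LEC CTR28 against CTR7 (1 without CTR28 replicate 4). The last comparison also gave 1 with quantile normalization, 1 with background correction and 1 with every probe on its own (the dim Tsc22d3 probe, 0.64). With the other 14-day control set 1 was called in DG RUN14 and 1 in LEC ACR14, Cdkn1a in both (−0.85, adjusted p = 0.0347, and −0.95, adjusted p = 0.0382). With group means left in, 1 same-mouse relation (Sult1a1, r = 0.503) and 1 pair (Sgk1 and Tsc22d3 in LEC, r = 0.547) passed. The cause of these changes was not tested.

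Single differences larger than their SE changed sign in 17 cases, where a case is 1 difference under 1 alternative and some differences appear more than once. Mt1 in DG became 0.31 in ACR7 and 0.26 in RUN7 with quantile normalization, the same 0.31 and 0.26 with background correction, and −0.18 in RUN14 without replicate 1 of the first control set (range with single arrays left out −0.18 to 0.82). Its difference between DG and LEC became 0.21 with quantile normalization. Sgk1 in DG ACR14 became 0.089 without replicate 5 of the second control set (range −0.50 to 0.089) and 0.027 without the 3 arrays high in choroid plexus genes. With the other control set, Cdkn1a became 0.27 in DG ACR14 and 0.068 in LEC RUN14, Mt2 −0.32 in DG RUN14 (−0.095 with both sets) and 0.035 in LEC ACR14, Pdk4 −0.0245 in LEC ACR14 and 0.10 in LEC RUN14, and Sgk1 0.14 in LEC RUN14. Cdkn1a in LEC ACR14 became 0.0077 without ACR14 replicate 2 (range −0.69 to 0.0077). Other scalings moved the median of all genes by less than 0.1.

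Replicate numbers did not pair the mice: with 3 pairs, no comparison had every pair of same-numbered arrays correlated over 0.1. Their deviations correlated at −0.13 to 0.28 in DG ACR7, −0.155 to 0.073 in LEC RUN28 and 0.0033 to 0.40 in LEC RUN7, and at 0.10 to 0.19 in the 2 pairs of DG RUN14. With the replicate block 1 member was called in LEC RUN28 (Mt2, 0.468, adjusted p = 0.0452) and 1 in LEC CTR28 against CTR7, and no other count left the range of 1.5 times. No paired analysis was possible for the second 14-day control set because it shares no replicate numbers with the groups it was compared with.

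With 2 to 4 mice a group, differences of the size seen here were often not separable from the spread between mice. The Mt1 probe was close to the top of the arrays' intensity range and Nr3c1 close to its bottom. Pdk4, Mt2 and the dimmer probes of Tsc22d3 and Cdkn1a were read at low intensities.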
